A study of Rattus norvegicus with 12 samples.

Results

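The Zfp genes encode zinc finger proteins, and *Zfp618*, with a higher mean signal in recuperated than in control ARC, was among them. Members were taken by symbol: every probe set with 1 gene symbol that begins with Zfp and a number, without the 3 genes of the *Zfp36* group, and 1 probe set per gene, the one with the highest mean over all arrays. This gave 217 genes of the 14217 that carried 1 symbol on the array. The rule itself read symbols and mean signal only, but the family was picked around *Zfp618* with its difference in these arrays known, and *Zfp618* is counted among its called genes.

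The arrays measured the arcuate nucleus (ARC) of the hypothalamus, cut by laser from stained sections of male Wistar rats at 3 months of age, 1 animal per array. Recuperated animals (6 arrays) were born to dams on a low-protein diet with 8% protein and nursed by control dams, in litters reduced to a few males. Control animals (6 arrays) were born to and nursed by control dams, in larger litters of both sexes, so that diet before birth and litter size after it cannot be told apart. All were weaned onto standard chow, and the comparison asks what remained in adult ARC after poor growth before birth and catch-up after it.

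A zinc finger of the common C2H2 kind is a short loop of protein held together by a zinc ion, and fingers in series read a stretch of DNA or bind RNA. Many proteins with such fingers carry a KRAB domain, which recruits the co-repressor TRIM28 and with it enzymes that place silencing marks on chromatin. They form one of the largest and fastest evolving gene families of mammals, often in clusters of copies along a chromosome. The symbol Zfp also covers proteins that share only the finger, among them ubiquitin ligases, RNA-binding proteins and regulators of neurons and fat cells.

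Signal is given throughout as log2 signal relative to the array median, so that 0 is the middle probe set of the array and a difference of 1 is 2-fold. Signal from different probe sets is not a measure of which gene was more abundant. Of the 217 genes, 105 (48.4%) lay above the array median on all 12 arrays, 45 (20.7%) on none and 67 on some. Over all 14217 genes, 53.5% lay above it on all arrays and 28.5% on none. The spread between arrays within a group had a median SD of 0.35 over the Zfp genes and 0.29 over all genes.

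The recuperated and control ARC differed little over the Zfp genes as a whole. The median log2 fold change, recuperated over control, was -0.003, against -0.04 over all genes, and its sign turned to 0.02 when the array medians were not subtracted. In 196 genes (90.3%) the groups lay within 1.3-fold, against 94.6% of all genes. The log2 fold change was positive in 106 genes (48.8%) and in 39.8% of all genes. The median Zfp signal of an array was 0.70 ± 0.04 in recuperated and 0.68 ± 0.09 in control arrays (SD, n = 6 each; exact two-sided permutation test, p = 0.695).

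No Zfp gene passed the limma test after Benjamini-Hochberg adjustment over all 31042 probe sets (0 of 217, smallest adjusted p = 0.999), and neither did any of all genes (0.0%). At 1.3-fold with an unadjusted P under 0.05, the cut-off of the study's methods applied here to the P of limma, 6 Zfp genes were higher in recuperated ARC (2.76%), where 0.612% of all genes were. Another 4 were lower (1.84%), where 1.21% of all genes were. The study kept only genes that met its cut-off under each of 3 ways of computing signal, while here it was applied to 1 of them, RMA. With the methods' t-test in place of limma 3 were higher and 3 lower, and in limma without recuperated array 5 the counts were 2 and 3, and without control array 2 only 3 were higher. An unadjusted P under 0.05 at any fold was reached by 12 Zfp genes (5.53%) and by 2.91% of all genes. The 2 that were under 1.3-fold were *Zfp182*, with a log2 fold change of 0.32, and *Zfp296*, with -0.35, both named after their values were seen. Arrays of 1 Zfp gene, *Zfp136*, did not overlap between the groups, with recuperated lower, as in 0.0985% of all genes. No Zfp gene had all recuperated arrays above all control arrays, which 0.0352% of all genes did.

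Most of the called genes were dim on some or all arrays. Of the 149 Zfp genes brighter than the array median on 6 or more arrays, 2 were higher and 2 were lower (1.34% each), against 0.442% and 0.818% of the 9046 such genes on the array. Of the 68 dimmer Zfp genes, 4 were higher (5.88%) and 2 were lower (2.94%), against 0.909% and 1.90% of the 5171 dimmer genes on the array. All 10 called genes had 1 probe set only, so that none of these differences was measured a second time on the same arrays.

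**Figure D1:**
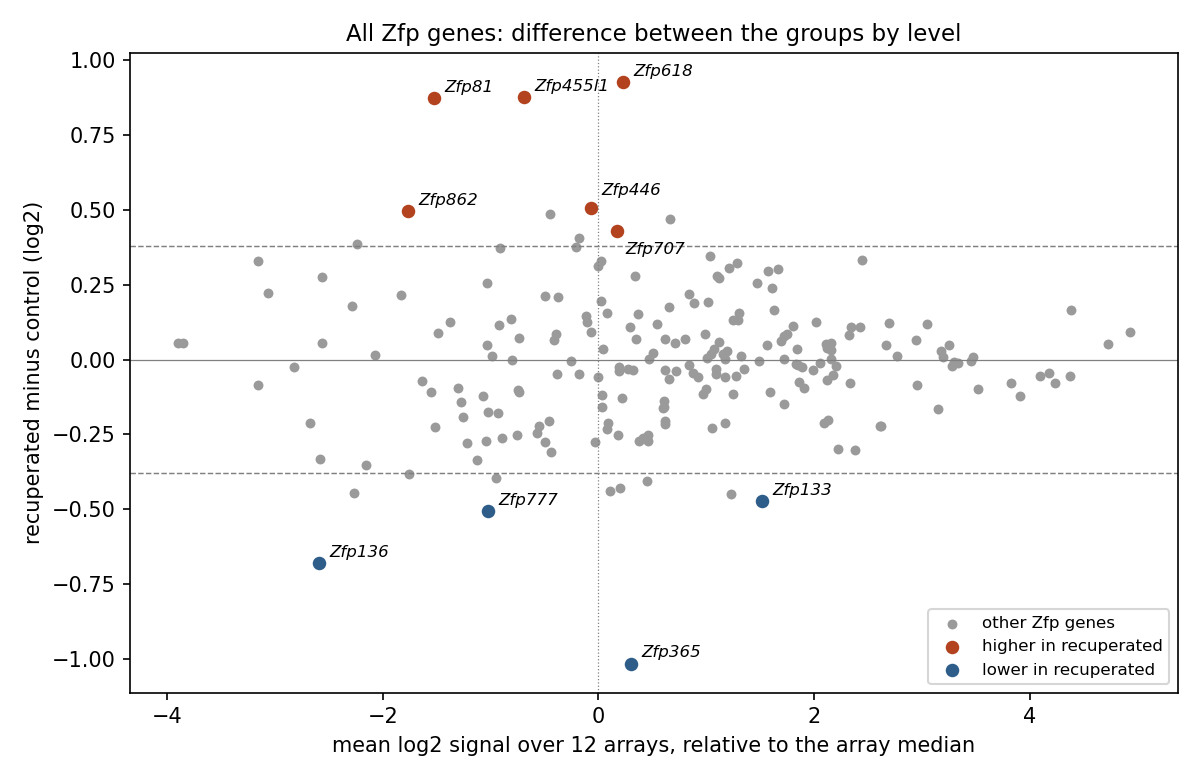
Each point is 1 of the 217 Zfp genes, placed by its mean log2 signal over 12 arrays relative to the array median and by its log2 difference, recuperated minus control; dashed lines mark 1.3-fold. The 6 higher genes (orange) and 4 lower genes (blue) at 1.3-fold with unadjusted P under 0.05 stand outside a band that holds 196 of the genes. Other genes outside the band did not reach P under 0.05, such as *Zfp758* at 0.485 and *Zfp771* at -0.45.

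*Zfp618* had the largest positive log2 fold change of the 217. The human protein binds the ubiquitin ligase UHRF2 and aids its reading of hydroxymethylcytosine, the oxidised form of methylated DNA. Its probe set measured 0.64, 0.30, 1.12, 0.63, 1.01 and 0.46 in recuperated arrays 1 to 6, against -0.36, 0.01, -0.79, -0.31, 0.69 and -0.64 in control arrays 1 to 6. All 6 recuperated arrays lay above the array median and above every control array but 1, control 5, whose 0.69 was higher than 4 recuperated values. Its mean was 0.69 ± 0.32 in recuperated and -0.23 ± 0.53 in control arrays (SD, n = 6 each). *Zfp618* was singled out with its difference in these arrays already known, so its p is no independent evidence (limma, unadjusted P = 0.00126, adjusted p = 0.999; exact two-sided permutation test, p = 0.0108). Leaving out each array in turn gave log2 fold changes from 0.82 to 1.11, the highest without control 5.

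The other genes of hydroxymethylcytosine were a list of 8 measured of 9 chosen, the TET oxidases and other proteins tied to the mark. None passed 1.3-fold with P under 0.05 in either direction, where 0.612% of all genes were higher and 1.21% lower. Their median log2 fold change was 0.03. *Uhrf2*, the partner of *Zfp618*, had a signal of 2.29 ± 0.14 in recuperated and 2.24 ± 0.32 in control arrays (SD, n = 6 each). Of the co-repressors that zinc finger repressors recruit, 23 of 27 were measured and 22 lay above the array median on all arrays. None of these co-repressors passed the threshold, with a median log2 fold change of -0.06. At the shares over all genes, lists this short often hold no called gene, so neither count is a result about its list. The list also held *Rest*, itself a zinc finger repressor. *Trim28* ran at 3.13 ± 0.13 in recuperated and 3.19 ± 0.09 in control arrays.

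*Zfp365* showed the largest negative log2 fold change, -1.02 with a standard error of 0.39. Its protein, studied in rat and mouse brain as DBZ, binds the schizophrenia-associated protein DISC1 and takes part in neurite growth and oligodendrocyte maturation. Signal was -0.64, 0.18, -0.51, 1.02, -0.88 and -0.43 in recuperated arrays 1 to 6, against 0.16, 0.40, 1.23, 1.86, -0.33 and 1.51 in control arrays 1 to 6. The groups overlapped: recuperated array 4 stood above the others of its group, and control arrays 1, 2 and 5 lay within the recuperated range. limma gave an unadjusted P = 0.0208 (adjusted p = 0.999) and the exact two-sided permutation test p = 0.0519. Oligodendrocyte markers as a list averaged 3.11 ± 0.23 in recuperated and 3.20 ± 0.13 in control arrays. Of them 0 of 8 passed the threshold, where 0.612% of all genes were higher and 1.21% lower. The part of these markers in the *Zfp365* difference was not tested. Without recuperated array 4 the log2 fold change of *Zfp365* was -1.26, and without control array 4 it was -0.80 and missed the threshold.

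*Zfp133*, whose human counterpart is a KRAB repressor, was the 1 called gene above the array median on all 12 arrays. In recuperated arrays it ran at 0.78, 1.52, 1.49, 1.40, 0.70 and 1.80, against 1.92, 1.68, 1.90, 1.52, 1.63 and 1.87 in control arrays. Recuperated arrays 1 and 5 were well below all controls, while arrays 2 and 6 reached the control range. The log2 fold change was -0.47 with a standard error of 0.19 (limma, unadjusted P = 0.0235, adjusted p = 0.999), and without recuperated array 1 or 5 it missed the threshold. By the exact two-sided permutation test p was 0.026.

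*Zfp136* was the gene without overlap, and a dim one. Its signal was -2.70, -3.30, -3.06, -3.29, -2.59 and -2.66 in recuperated arrays 1 to 6, against -2.35, -2.49, -2.35, -2.06, -1.77 and -2.50 in control arrays 1 to 6. Every array lay far below the array median, and the highest recuperated array, at -2.59, was just under the lowest control array, at -2.50. The log2 fold change was -0.68 with a standard error of 0.17 (limma, unadjusted P = 0.00156, adjusted p = 0.999), and the exact two-sided permutation p of 0.00216 is the smallest that 6 against 6 arrays can give.

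*Zfp777*, also dim, was the last of the 4 lower genes. Its signal had a lowest value of -1.70, a median of -1.43 and a highest value of -0.67 in recuperated arrays, against -1.19, -0.87 and -0.27 in control arrays. The ranges overlapped, with 4 of the 6 recuperated arrays below every control. The log2 fold change was -0.51 with a standard error of 0.22 (limma, unadjusted P = 0.0384, adjusted p = 0.999). By the exact two-sided permutation test p was 0.0693.

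Besides *Zfp618*, 5 genes were higher in recuperated ARC at the same threshold. *Zfp707* ran at 0.51, 0.34, 0.17, 0.33, 0.86 and 0.13 in recuperated arrays, against 0.11, -0.17, 0.00, 0.24, 0.06 and -0.47 in control arrays. All recuperated arrays lay above the array median and 4 of them above every control (log2 fold change 0.43, standard error 0.16; limma, unadjusted P = 0.0154, adjusted p = 0.999). *Zfp446* had a lowest value of -0.32, a median of 0.04 and a highest of 1.23 in recuperated arrays, against -0.62, -0.32 and -0.08 in control arrays. Recuperated array 1 alone held the value of 1.23, and without it the log2 fold change was 0.30 and missed the threshold, against 0.51 with it (standard error 0.22; limma, unadjusted P = 0.0395, adjusted p = 0.999). The exact two-sided permutation test gave p = 0.0108 for *Zfp707* and 0.0325 for *Zfp446*.

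*Zfp455l1* and *Zfp81* had the next largest positive differences after *Zfp618*. *Zfp455l1* had a lowest value of -0.86, a median of -0.51 and a highest of 0.80 in recuperated arrays, against -2.41, -1.25 and 0.33 in control arrays, and its log2 fold change was 0.88 (standard error 0.40; limma, unadjusted P = 0.0461). *Zfp81* had values of -2.32, -0.74 and -0.38 in recuperated arrays, against -2.98, -1.88 and -1.30 in control arrays, and its log2 fold change was 0.87 (standard error 0.34; limma, unadjusted P = 0.0214). Both overlapped between the groups: control array 4 was high for *Zfp455l1*, and recuperated arrays 3 and 4 were low for *Zfp81*. *Zfp862* ran from -2.17 to -0.95 with a median of -1.55 in recuperated arrays, against -2.50 to -1.48 with a median of -2.06 in control arrays, and its log2 fold change was 0.50 (standard error 0.22; limma, unadjusted P = 0.0383). Each had an adjusted p = 0.999. The exact two-sided permutation test gave p = 0.0974 for *Zfp455l1*, 0.0541 for *Zfp81* and 0.0606 for *Zfp862*, none under 0.05.

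**Figure D2:**
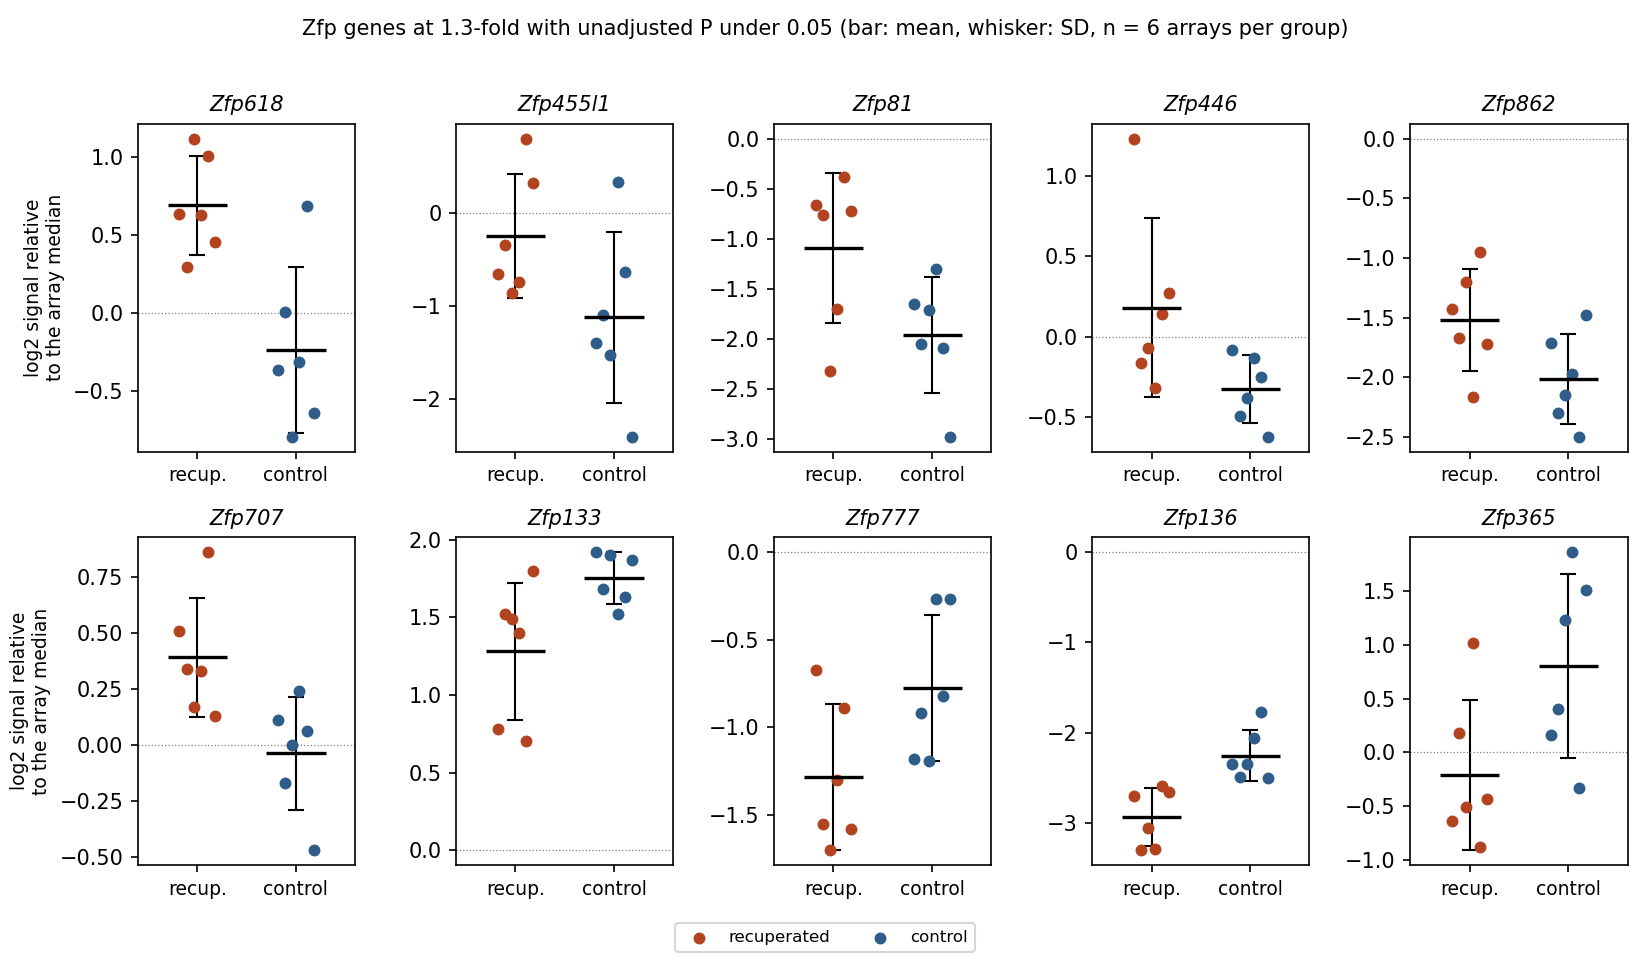
Signal of the 10 called Zfp genes, 1 point per array, as log2 relative to the array median, with recuperated arrays (orange) left and control arrays (blue) right in each panel; bars are means and whiskers SD (n = 6). *Zfp136* is the 1 panel in which the points of the groups do not overlap, and in *Zfp618* a single control array, at 0.69, lies among the recuperated ones.

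The Zfp genes of known function were placed in 4 lists by role. Proteins that handle chromatin or bind promoters made up the first list (15 of 16 measured), of which *Zfp618* was higher and 0 lower, with a median log2 fold change of 0.003. That 1 gene is 6.67% of the list, and it is the gene around which the family was picked. Over all genes, the share to set beside each of the 4 lists, 0.612% were higher and 1.21% lower. *Zfp219*, a transcription factor, had 4.47 ± 0.29 in recuperated and 4.30 ± 0.21 in control arrays (SD, n = 6 each). *Zfp445*, which in mouse keeps imprinted genes methylated together with *Zfp57*, had 3.11 ± 0.22 in recuperated and 2.99 ± 0.36 in control arrays. *Zfp644*, part of the histone methylating complex of G9a, had 2.39 ± 0.22 in recuperated and 2.28 ± 0.16 in control arrays. None of these 3 differences passed the threshold (unadjusted limma P of 0.296, 0.492 and 0.416; adjusted p = 0.999 each).

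Regulators of brain and neural development formed the second list (13 of 18 measured), with *Zfp365* lower, 0 higher and a median log2 fold change of -0.05. That 1 gene is 7.69% of the list, where 1.21% of all genes were lower. *Zfp462*, which is needed for human brain and facial development, came close to the threshold from below. It had 2.61 ± 0.29 in recuperated and 2.28 ± 0.24 in control arrays (log2 fold change 0.33, standard error 0.16; limma, unadjusted P = 0.0532, adjusted p = 0.999). Its second probe set gave a log2 fold change of 0.03. *Zfp521*, which holds progenitor cells back from becoming fat cells in mouse and is active in early neural cells, had 0.25 ± 0.93 in recuperated and 0.65 ± 0.71 in control arrays. Recuperated array 5 alone was at -1.60 for this gene. *Zfp703*, a transcriptional repressor, had 0.53 ± 0.36 in recuperated and 0.69 ± 0.20 in control arrays (unadjusted P = 0.354).

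Proteins that handle RNA or other proteins were the third list (15 of 16 measured, 0 higher and 0 lower, median log2 fold change 0.05). *Zfp91*, a ubiquitin ligase of the NF-kB pathway, had 4.98 ± 0.07 in recuperated and 4.88 ± 0.16 in control arrays. Its SD over all 12 arrays, 0.13, was the smallest of the 217. *Zfp598*, a ligase that marks collided ribosomes, had 0.16 ± 0.23 in recuperated and 0.00 ± 0.18 in control arrays. *Zfp451*, a SUMO ligase, had 2.08 ± 0.12 in recuperated and 1.96 ± 0.19 in control arrays. *Zfp385a*, an RNA-binding partner of p53, varied more, at -0.01 ± 0.78 in recuperated and 0.42 ± 0.61 in control arrays.

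The fourth list held regulators of fat cells and metabolism (5 of 7 measured, 0 higher and 0 lower, median log2 fold change 0.07). *Zfp423*, which commits mouse cells to the fat lineage and shapes the cerebellum, had 2.98 ± 0.18 in recuperated and 2.91 ± 0.09 in control arrays. *Zfp467*, which favours fat over bone in mouse marrow, had 1.73 ± 0.51 in recuperated and 1.49 ± 0.49 in control arrays. *Zfp746*, known as PARIS and a repressor of the mitochondrial regulator PGC-1alpha, had 1.59 ± 0.19 in recuperated and 1.54 ± 0.17 in control arrays. The 171 genes in no list held the other called ones, with 5 higher (2.92%) and 3 lower (1.75%), against 0.612% and 1.21% of all genes.

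**Figure D3:**
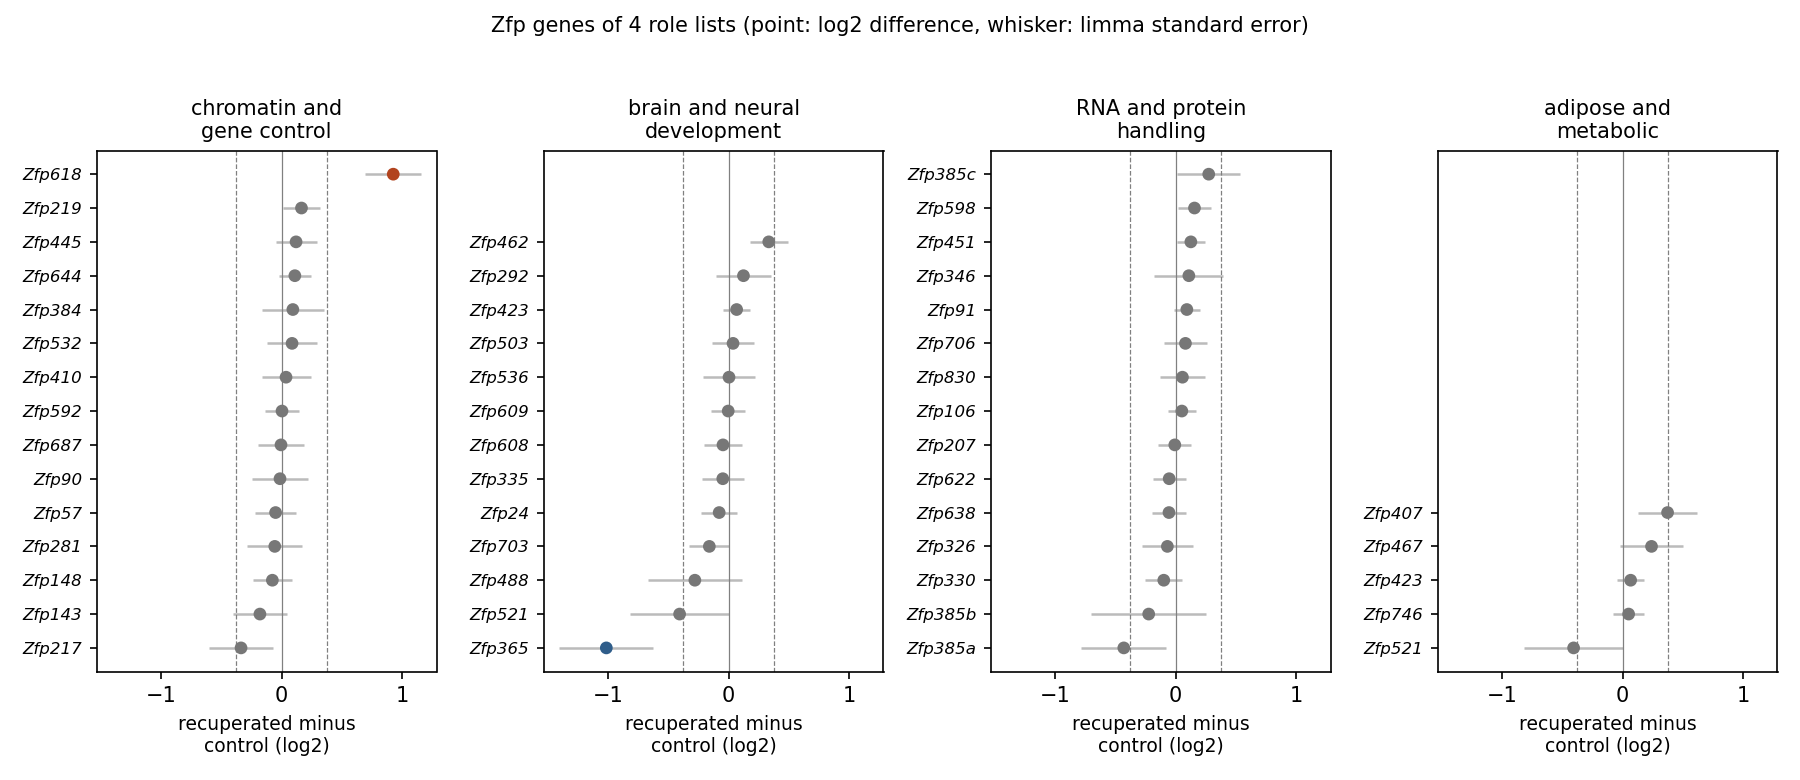
Log2 difference, recuperated minus control, of the measured Zfp genes of 4 role lists, with limma standard errors as whiskers and dashed lines at 1.3-fold; *Zfp423* and *Zfp521* stand in 2 lists. *Zfp618* at 0.93 and *Zfp365* at -1.02 are the coloured points, the only list members past 1.3-fold with unadjusted P under 0.05.

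The probe sets with signal farthest above the array median differed little. Besides *Zfp91* and *Zfp219* they were *Zfp106*, *Zfp638*, *Zfp24* and *Zfp428*, with log2 fold changes from -0.08 to 0.17 over the 6 genes. *Zfp106*, an RNA-binding protein that protects motor neurons in mouse, had 4.76 ± 0.10 in recuperated and 4.71 ± 0.17 in control arrays. *Zfp24*, which mouse oligodendrocytes need to make myelin, had 4.20 ± 0.33 in recuperated and 4.28 ± 0.11 in control arrays, with recuperated array 4 alone at 3.54. *Zfp638*, a splicing and silencing factor, had 4.35 ± 0.26 in recuperated and 4.40 ± 0.18 in control arrays. At the other end, *Zfp37*, *Zfp839*, *Zfp398* and *Zfp689* lay below the array median by more than 2 on every array.

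How much a Zfp gene varied between arrays ranged widely. The SD over all 12 arrays was smallest for *Zfp91* (0.13), *Zfp106* (0.14) and *Zfp605* (0.14) and largest for *Zfp385b* (0.92), *Zfp365* (0.91), *Zfp455l1* (0.89) and *Zfp521* (0.82). *Zfp385b* ran from -1.96 to 0.72 in recuperated arrays, against -2.25 to 0.55 in control arrays, so that nearly the same range was spanned within each group. Of these 4 genes, *Zfp365* and *Zfp455l1* passed 1.3-fold with P under 0.05, where 0.612% of all genes were higher and 1.21% lower. The SD over all 12 arrays includes the difference between the groups, so a called gene ranks higher by it and this is no separate result. Within groups the SD was 0.78 for *Zfp365* and 0.80 for *Zfp455l1*, against 0.83 for *Zfp521* and 0.96 for *Zfp385b*.

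Repeat measurements on the same arrays were had for 74 genes with 2 to 8 probe sets, which gave 119 further probe sets. None of them passed the threshold in either direction, where 0.612% of all genes were higher and 1.21% lower. Of the 119, 59 had the sign of the probe set that stood for the gene. For *Zfp91*, with 8 probe sets, the log2 fold changes ran from -0.28 to 0.09. Probe sets of 1 gene can detect different transcript ends, which the annotation used here does not tell apart.

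Some of the Zfp genes lay near one another on a chromosome. Of 211 genes placed on a chromosome by the RefSeq gene table, 56 (26.5%) were on chromosome 1, which holds 13.6% of protein-coding genes. With at most 3 other protein-coding genes between neighbours, 82 genes fell into 30 runs of 2 or more. The larger part of the 211 had no such neighbour. The longest run had 8 genes on chromosome 4, in the order *Zfp398*, *Zfp282*, *Zfp212*, *Zfp956*, *Zfp777*, *Zfp746*, *Zfp467* and *Zfp862*. Neighbours in it did not move one way: *Zfp862* was called higher, *Zfp777* was called lower, and the median log2 fold change was 0.13. *Zfp956* had 0.98 ± 0.19 in recuperated and 0.79 ± 0.10 in control arrays, and *Zfp212* had 2.51 ± 0.27 in recuperated and 2.74 ± 0.12 in control arrays. *Zfp398*, with a log2 fold change of 0.33, and *Zfp282*, with 0.07, did not pass. In the other runs, *Zfp455l1*, *Zfp446*, *Zfp81* and *Zfp707* were each the only called gene of their run.

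**Figure D4:**
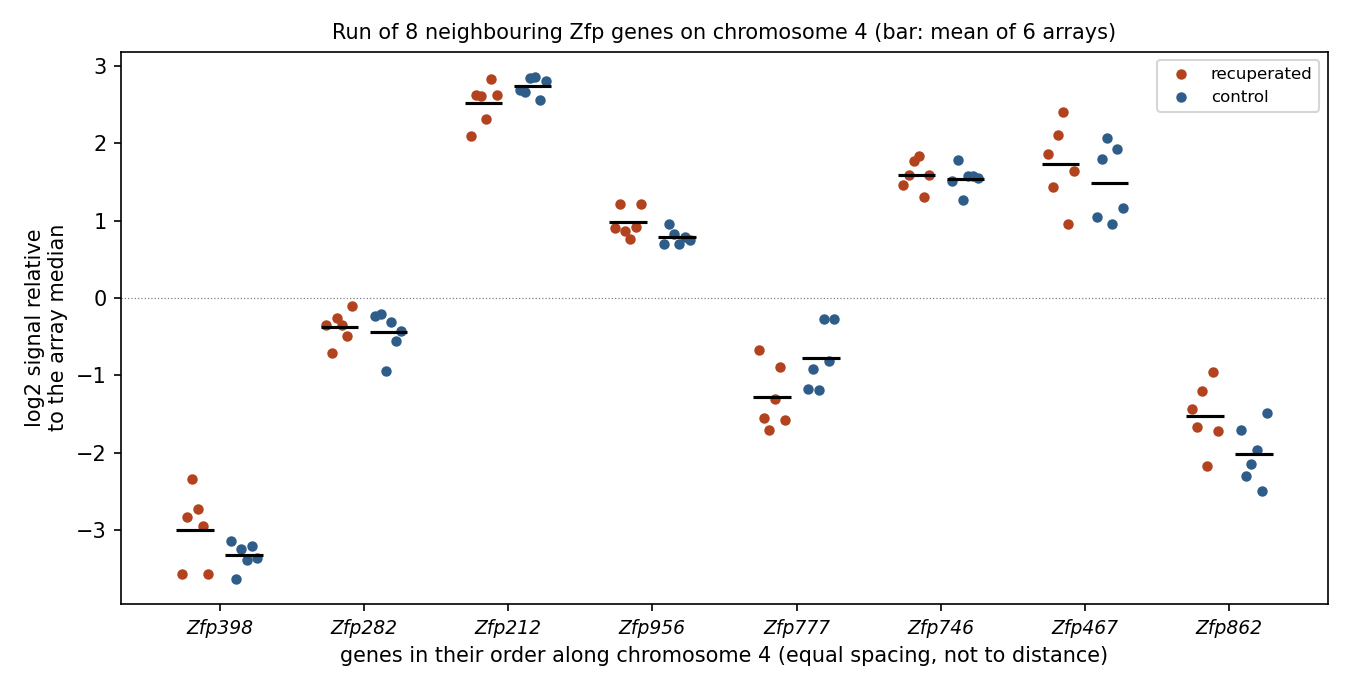
Log2 signal relative to the array median of 8 neighbouring Zfp genes in their order along chromosome 4, 1 point per array, recuperated (orange) left of control (blue), with bars at the means. Within the run *Zfp777* is lower by 0.51 and *Zfp862* higher by 0.50 in recuperated arrays, and the other 6 genes, none of which passed, overlap between the groups as both of these do; *Zfp398* has 4 recuperated arrays above every control.

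Promoters of the Zfp genes, as the 250 bases before each start in RefSeq annotation of the rat assembly GRCr8, were found for 175 of the 217 genes (213 starts). Their median GC content was 55.6%, against 58.8% over genes on the array and 51.2% over all starts of the table. A GC box, the letters GGGCGG on either strand, stood in 42.7% of the Zfp starts, against 52.4% of the starts of array genes and 30.5% of all starts. A CCAAT box on either strand stood in 40.4% of the Zfp starts, against 34.6% and 34.0%. The TATA box letters TATAAA stood in 6.57% of the Zfp starts, the ETS site CCGGAAG in 13.1% and the NRF1 site GCGCATGC in 6.1%, against 8.04%, 12.1% and 3.77% of the starts of array genes. No motif searched contains another, and a match is a description of the letters only.

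Of the 10 called genes, 7 had a promoter in that table. The promoters of 2 lower genes and 1 higher gene show how unlike these sequences were, from the CpG-rich start of *Zfp777* (76.4% GC) to *Zfp446* (56.0% GC), with *Zfp365* between them (64.0% GC). Each is written 5′ to 3′ in lower case, and capitals mark a GC box or CCAAT box on either strand. *Zfp777* is at chr4:78373559-78373808 on the minus strand, *Zfp365* at chr20:20664872-20665121 on the plus strand and *Zfp446* at chr1:82673670-82673919 on the plus strand, all in GRCr8.
Zfp777: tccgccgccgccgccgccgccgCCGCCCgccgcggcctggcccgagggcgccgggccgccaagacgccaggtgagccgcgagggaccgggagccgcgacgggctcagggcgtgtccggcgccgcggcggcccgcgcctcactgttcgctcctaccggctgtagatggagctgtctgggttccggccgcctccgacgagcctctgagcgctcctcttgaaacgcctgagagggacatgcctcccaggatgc
Zfp365: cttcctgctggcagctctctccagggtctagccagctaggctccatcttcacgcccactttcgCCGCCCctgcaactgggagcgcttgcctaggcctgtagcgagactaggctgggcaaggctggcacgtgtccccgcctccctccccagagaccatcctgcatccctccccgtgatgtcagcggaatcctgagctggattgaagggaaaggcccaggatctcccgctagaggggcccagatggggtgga
Zfp446: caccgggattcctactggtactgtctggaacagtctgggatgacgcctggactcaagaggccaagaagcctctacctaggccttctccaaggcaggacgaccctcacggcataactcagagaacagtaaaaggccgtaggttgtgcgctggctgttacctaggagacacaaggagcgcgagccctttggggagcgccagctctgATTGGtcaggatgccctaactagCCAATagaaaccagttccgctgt
The lower genes *Zfp777* and *Zfp365* each held 1 GC box, and the higher gene *Zfp446* held 2 CCAAT boxes. Among the 7 genes the CCAAT box stood in both directions, while the GC box stood only at the lower genes *Zfp777* and *Zfp365*. So few genes cannot show whether a motif goes with direction. The lower gene *Zfp136* and the higher gene *Zfp455l1* both held a CCAAT box and no GC box. *Zfp862*, higher, had a start with a CCAAT box and others with none of the motifs. The start of *Zfp81*, also higher, held none of the motifs and no CpG (37.6% GC). None of the motifs stood upstream of all 7 genes.

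The arrays themselves differed in the signal of markers of the ARC and of the neighbouring ventromedial nucleus. Recuperated array 4 stood apart, with a mean ARC marker signal of 1.14 where the other 11 arrays had 2.96 to 3.26, and a mean ventromedial nucleus marker signal of 3.15 where the others had 0.15 to 1.51. It was also outside the others for tanycyte and ependyma markers (-0.57, others 0.68 to 1.44) and microglia markers (0.36, others 0.67 to 1.19). The same held for neuron markers (5.73, others 4.85 to 5.25) and oligodendrocyte markers (3.56, others 2.93 to 3.38). Its astrocyte and endothelium marker means lay within the range of the others. The ARC marker mean was also lower over the recuperated group, at 2.74 ± 0.79, against 3.21 ± 0.03 in control arrays (SD, n = 6 each; exact two-sided permutation test, p = 0.0152), and 5 of the 6 recuperated arrays lay below every control. Without recuperated array 4 it was 3.06 ± 0.12 in the 5 recuperated arrays and 3.21 ± 0.03 in the 6 control arrays (exact two-sided permutation test, p = 0.026), a comparison added after seeing the data. In the same arrays the ventromedial nucleus marker mean was 0.54 ± 0.41 in recuperated and 0.86 ± 0.42 in control (exact two-sided permutation test, p = 0.232). Among the 9 ARC markers measured, 7 were brighter than the array median on 6 or more arrays. On all 12 arrays, array 4 included, only *Pdyn* was higher in recuperated ARC, and the median marker log2 fold change was -0.48. Array 4 had 0.91 for *Npy* (other recuperated arrays 4.32 to 5.5), -0.52 for *Tac3* (3.03 to 3.68) and 0.56 for *Th* (3.4 to 3.85). For *Pdyn* it was the highest recuperated array, at 5.27. How far the median of -0.48 rests on array 4 was not tested. At 1.3-fold with unadjusted P under 0.05 on all 12 arrays, 2 of the 9 markers (22.2%) were lower in recuperated ARC, against 1.21% of all genes. They were *Slc6a3*, with array 4 at -2.05 and the other recuperated arrays at -0.48 to 0.33, and *Prlr*. For *Prlr* array 4, at 0.81, lay within the 0.72 to 1.42 of the others. The part of this marker difference in the Zfp results was not tested. In tissue RNA, fewer cells of a type and less RNA per cell cannot be told apart. Without recuperated array 4, 9 Zfp genes were higher and 3 lower, against 6 and 4 with it, and 9 of the 10 called genes were called still, with *Zfp777* missing the threshold. *Zfp618* had a log2 fold change of 0.94 without it. Recuperated array 5 held the highest signal in 32 Zfp genes and the lowest in 36, the most of any array, and without it 2 Zfp genes were higher and 3 lower. The log2 signal difference between the 3′ and 5′ ends of actin, a measure of RNA integrity, was 1.57 ± 0.36 in recuperated and 1.47 ± 0.20 in control arrays (exact two-sided permutation test, p = 0.576).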

How the data were processed

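Total RNA from laser-captured ARC was amplified and hybridised to Affymetrix rat genome arrays, 1 animal on each of 12 arrays. The deposited values are log2 expression from RMA, which corrects background, equalises arrays and sums up the probes of a probe set. In the submitters' processing notes, RMA is named beside Affymetrix Expression Console, while the study's methods name GeneSpring. The table holds 31099 probe sets, of which 57 are Affymetrix controls.

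Each array was set to its own median, as in the study's methods, and recuperated was compared with control by lmFit and eBayes of limma 3.58.1 (R 4.3.3) over 31042 probe sets, with Benjamini-Hochberg adjustment. The fit was tested on simulated data. Single values were also compared by an exact two-sided permutation test of the array labels. Tables were made with Python 3.11.15, pandas 2.3.3 and numpy 2.4.6. Symbols came from the platform annotation, and 7 probe sets that carried a Zfp symbol among several were left out. The 217 genes were matched by gene identifier to the RefSeq table of GRCr8 for order along chromosomes (212 matched) and for promoters.

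The members, the lists and the rule for naming genes were chosen with earlier results of these data known. Named were *Zfp618*, all genes past the threshold or without overlap, the 6 highest and 4 lowest by mean, the 4 largest and 3 smallest by SD, up to 4 of each role list with the smallest p among those brighter than the array median on 6 or more arrays, and the longest run of neighbours. *Uhrf2* and *Trim28* were named beside it for their known roles. Arrays give no read depth, so their number limits the precision. The submitters label each array as 1 animal, and the study counts litters. Alternatives were no subtraction of medians, quantile normalization, array quality weights, the methods' t-test, a filter on dim probe sets, the replicate number as a block, genes averaged over their probe sets, folds of linear means, and leaving out each array. Protein sequences were not used here.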

Additional observations from a re-analysis of the deposited data

Results flagged for a closer look

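In 72 groups of 6 arrays, one for each of the 36 named genes in recuperated and in control arrays, a single array stood far from the rest in 6 cases, measured as its gap to the nearest other array over the whole range of the group (Dixon's rule). Chance gives about 1 such case in 20 groups. Recuperated array 4, the one that stood apart by its ARC and ventromedial nucleus markers, was low for *Zfp24*, at 3.54 where the other 5 had 4.23 to 4.41, and for *Zfp219*, at 3.91 where the others had 4.45 to 4.70 (log2 signal relative to the array median). Recuperated array 5 was low for *Zfp521*, at -1.60 where the others had 0.26 to 0.91. Recuperated array 3 was high for the dim *Zfp37*, at -3.69 where the others had -3.97 to -3.87. Control array 5 was high for *Zfp445*, at 3.68 where the others had 2.66 to 2.98, and control array 1 was low for *Zfp423*, at 2.73 where the others had 2.93 to 2.96. None of these 6 genes was called higher or lower.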

How the results depend on the processing

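*Zfp618* kept its direction and its side of the threshold in all 20 alternatives, with log2 fold changes from 0.82 to 1.11, and *Zfp136* did so in all 19 that measured it. The alternatives reuse the arrays in which *Zfp618* was picked, and several, such as the methods' t-test, could not change its fold. *Zfp365* was lost once, without control array 4, *Zfp133* and *Zfp707* in 3 alternatives each, *Zfp81* in 2, *Zfp446* and *Zfp455l1* in 8 each, and *Zfp777* and *Zfp862* in 9 each. No call changed sign and no gene passed adjustment in any alternative, with the count at 0 throughout.

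The number of higher Zfp genes was 6, and 3 by the methods' t-test. Among the 149 Zfp genes brighter than the array median on 6 or more arrays, 2 were higher, 2 were lower and 0 were without overlap. The other called genes, *Zfp136* among them, were dimmer than this filter allows. Leaving out 1 array gave 2 to 9 higher genes and 3 to 6 lower genes, with 2 higher without recuperated array 5 and 3 higher without control array 2, and the median log2 fold change ran from -0.026 to 0.011. Its sign is thus not settled: it was -0.003, and 0.017 with no subtraction of array medians. Quantile normalization and unsubtracted values called the same 10 genes.

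Replicate numbers did not pair the arrays: deviations of same-numbered arrays correlated from -0.162 to 0.08, and 1 of 6 arrays correlated best with its own number. With the replicate number as a block, 5 genes were higher and 3 lower, all among the 10, and *Zfp618* had an unadjusted P = 0.00166. Arrays carry no measure of detection in the deposited values, so a signal under the array median was not separated from background.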
